A study of Mus musculus with 36 samples.

Results

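The chemokine family was read across mouse livers and liver tumours as every array probe whose gene symbol is Ccl, Cxcl, Cx3cl, Xcl, Ccr, Cxcr, Cx3cr, Xcr or Ackr followed by a number. This rule found 77 of 25697 probes, which name 60 of the 16593 genes with a probe. Of these 60 genes, 38 were detected on enough arrays to be tested, 31 ligands and 7 receptors, among 10765 tested genes in all.

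Chemokines are small secreted or membrane-bound proteins that steer white blood cells along concentration gradients. They act through G protein-coupled receptors named after the ligand classes, while the atypical receptors bind and remove or transport chemokines without that signalling. In injured liver, hepatocytes, Kupffer cells, endothelium, bile duct cells and stellate cells are known sources of ligands for monocytes, neutrophils and lymphocytes. Inflammatory ligands such as Ccl2 and Cxcl1 are switched on by injury, whereas homeostatic ligands such as Cxcl12 and Ccl21a are made in resting tissue.

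Expression was measured in total RNA of FVB/n livers on 36 single-colour bead arrays, in 10 groups of 3 or 4 samples that differ in driver genes, tissue and agent. Control livers without driver genes received PBS (n = 3) or DDC (n = 3). The AKT-CAT groups were non-tumoral liver (n = 3) and tumours (n = 4) without an agent, non-tumoral liver (n = 3) and tumours (n = 4) with DDC, and non-tumoral liver (n = 4) and tumours (n = 4) with CCl4, the hepatotoxin carbon tetrachloride. The AKT-NRAS groups were tumours without an agent (n = 4) and with DDC (n = 4). All groups share the strain. The labels do not spell out CAT or DDC, and give no age, dose, duration, way of delivering the driver genes, or animal of origin. Nothing says that samples of a group came from separate animals, so p-values measure only the spread between these samples. Whole tissue was assayed, so fewer cells of a type and less RNA per cell cannot be told apart.

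Levels below are normalized log2 intensities of 1 probe per gene, and differences are log2 fold changes ± standard error from 1 limma fit over all tested genes. "Called" means an adjusted p (Benjamini-Hochberg over all 10765 genes) under 0.05. The arrays detected 10688 to 13101 probes each and 15 to 30 of the 38 tested chemokine and receptor genes. The lowest log2 level of a detected probe lay between 4.96 and 5.54 on each array, and levels under it have no order. The arrays lay on 5 slides: both control groups shared slide 1 with 2 DDC-treated AKT-CAT tumours, both AKT-NRAS groups had slide 4 to themselves, and both CCl4 groups had slide 5. Slides 2 and 3 held the other AKT-CAT samples. The hepatocyte markers were detected in every group, 6 or 7 of 7 per array, so the labelled tissue is borne out by its markers. A summed level of a marker list is the log2 of its markers' levels added on the linear scale, so the brightest markers weigh most.

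The promoters of 5 ligands on which the results turn are printed here, because Cxcl13 separated the AKT-NRAS tumours from every other group, Cxcl1 separated them from the AKT-CAT tumours, Ccl8 and Cxcl9 separated AKT-NRAS tumours with and without DDC, and Cxcl10 separated DDC from PBS livers. Each is a window of 300 bases that spans the start of the gene, written 5′ to 3′ on the strand of the gene, from RefSeq on GRCm38.p6. The windows are chr5:90890995-90891294 (plus strand) for Cxcl1, chr5:95956689-95956988 (plus) for Cxcl13, chr11:82114935-82115234 (plus) for Ccl8, chr5:92328030-92328329 (minus) for Cxcl9 and chr5:92348840-92349139 (minus) for Cxcl10. Capitals mark matches, searched on both strands, to the NF-kB consensus (searched by name), to the interferon-stimulated response element TTTCNNTTTC, to the STAT-type element TTCNNNGAA, or to the AP-1 element TGANTCA.
Cxcl1: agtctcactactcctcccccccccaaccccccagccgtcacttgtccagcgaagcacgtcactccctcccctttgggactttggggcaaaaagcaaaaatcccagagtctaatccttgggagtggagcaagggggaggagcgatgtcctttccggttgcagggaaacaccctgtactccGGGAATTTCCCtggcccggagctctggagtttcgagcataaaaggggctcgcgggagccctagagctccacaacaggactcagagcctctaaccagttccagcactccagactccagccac
Cxcl13: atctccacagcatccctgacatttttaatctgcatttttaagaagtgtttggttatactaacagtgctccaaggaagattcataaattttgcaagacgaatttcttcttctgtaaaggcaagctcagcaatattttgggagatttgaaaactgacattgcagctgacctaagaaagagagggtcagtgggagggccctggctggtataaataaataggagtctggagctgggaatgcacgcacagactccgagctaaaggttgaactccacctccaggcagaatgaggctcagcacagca
Ccl8: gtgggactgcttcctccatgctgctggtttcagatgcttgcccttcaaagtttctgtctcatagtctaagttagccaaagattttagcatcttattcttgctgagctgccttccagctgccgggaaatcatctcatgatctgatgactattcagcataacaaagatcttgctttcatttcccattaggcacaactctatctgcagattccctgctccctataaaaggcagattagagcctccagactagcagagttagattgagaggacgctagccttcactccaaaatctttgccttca
Cxcl9: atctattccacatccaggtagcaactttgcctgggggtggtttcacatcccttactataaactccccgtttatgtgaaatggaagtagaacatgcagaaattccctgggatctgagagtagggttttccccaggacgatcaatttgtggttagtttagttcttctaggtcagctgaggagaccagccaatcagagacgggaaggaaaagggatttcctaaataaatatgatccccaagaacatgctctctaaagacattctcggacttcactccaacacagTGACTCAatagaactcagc
Cxcl10: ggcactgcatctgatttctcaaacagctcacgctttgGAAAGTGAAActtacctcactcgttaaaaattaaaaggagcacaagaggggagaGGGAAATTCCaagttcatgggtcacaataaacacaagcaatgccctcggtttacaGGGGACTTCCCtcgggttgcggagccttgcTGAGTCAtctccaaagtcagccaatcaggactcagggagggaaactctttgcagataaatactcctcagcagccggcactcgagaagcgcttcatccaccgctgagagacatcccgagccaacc
The Cxcl1 window holds overlapping NF-kB matches in both orientations that begin at positions -71 and -70 relative to the start. The Cxcl10 window holds NF-kB matches that begin at -159, -104 and -103, a response-element match at -213 and an AP-1 match at -74. The Cxcl9 window holds 1 AP-1 match at position 31 after the start, and the Cxcl13 and Ccl8 windows hold none of the 4 motifs. No match overlapped a match to another motif. Over all 32851 promoters of this length in the table, 8.46% hold the NF-kB match, 3.44% the response element, 8.3% the STAT-type element and 7.81% the AP-1 element. A match is a description of the letters, not a site, and no match says only that these letters are not in this window. Of the 38 tested genes, 27 had a promoter in the table.

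The remaining 22 genes were detected on at most 2 arrays and were not tested. Most are receptors: Cxcr2 and Cxcr5 were detected on 2 arrays each, Ackr4, Ccr1, Ccr3, Cxcr1 and Xcr1 on 1 each, and Ackr3, Ccr10, Ccr1l1, Ccr2, Ccr4, Ccr8, Ccr9 and Cxcr6 on 0. The ligands Ccl1, Ccl20, Ccl26, Ccl28, Cxcl11, Cxcl15 and Cxcl3 were likewise detected on 0 arrays. The array therefore read ligands far more than the receptors that answer them, and the receptors for Ccl2 (Ccr2) and Cxcl1 (Cxcr2) could not be compared. The 7 tested receptors were Ackr1, Ackr2, Ccr6, Ccr7, Cx3cr1, Cxcr3 and Cxcr4.

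**Figure D1:**
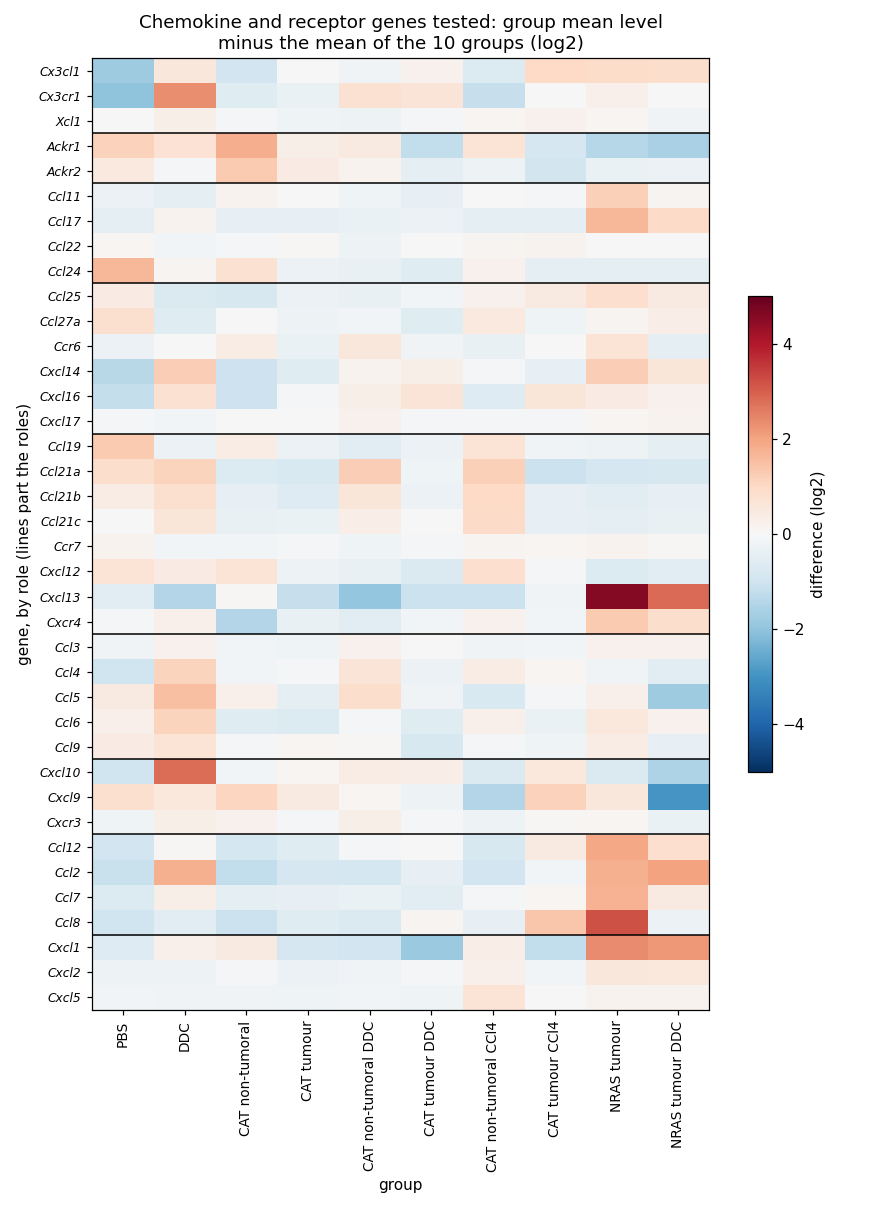
Mean log2 level of each of the 38 tested chemokine and receptor genes in each of the 10 groups, minus that gene's mean over the 10 groups; rows are genes grouped by role, columns are groups (CAT and NRAS stand for the AKT-CAT and AKT-NRAS models). Cxcl13 and Ccl8 stand out in the untreated AKT-NRAS tumours, Cxcl10 and Cx3cr1 in DDC livers, and Ackr1 is lowest in the AKT-NRAS tumours.

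The comparison of AKT-NRAS with AKT-CAT tumours asked how the driver genes change the tumour's chemokine output. Untreated AKT-NRAS tumours had higher levels of 16 of the 38 tested genes and a lower level of 1, Ackr1, so 44.7% were called against 37.4% of all tested genes. They carried more of the B cell-attracting Cxcl13, the neutrophil-attracting Cxcl1 and of Ccl2, Ccl7, Ccl8 and Ccl12, listed here as monocyte-attracting. With DDC in both tumour types, 9 genes were higher and 3 lower in AKT-NRAS tumours, 31.6% against 39.3% of all tested genes. These comparisons share no sample, and 8 genes were called higher in both, 47.1% of the first list and 66.7% of the second: Ccl17, Ccl2, Ccl7, Cx3cl1, Cxcl1, Cxcl13, Cxcl2 and Cxcr4. The shares of called genes lie near those of all tested genes, and both AKT-NRAS groups lay on a slide that held no AKT-CAT sample, so that slide and driver genes cannot be told apart here.

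Among the neutrophil-attracting CXC ligands, Cxcl1 measured 12.88, 12.80, 13.08 and 13.21 in the 4 untreated AKT-NRAS tumours and 9.47, 9.14, 9.35 and 11.12 in the AKT-CAT tumours. All AKT-NRAS values lay above all AKT-CAT values, although AKT-CAT tumour 4, on slide 3, stood well above the other 3, on slide 2. The difference was 3.22 ± 0.42 (9.33-fold, adjusted p = 4.06e-07). With DDC, Cxcl1 measured 12.95, 11.91, 13.13 and 13.14 in AKT-NRAS and 9.23, 8.74, 8.29 and 8.76 in AKT-CAT tumours, 4.03 ± 0.42 higher (16.3-fold, adjusted p = 3.61e-09). The groups did not overlap here either. Cxcl2, which acts on the same receptor, was dim throughout but was called in both comparisons. It was detected in none of the untreated AKT-CAT tumours, where the difference was at least 1.19-fold (adjusted p = 0.00216), and with DDC in 1 of 4, where it was 0.62 ± 0.22 (adjusted p = 0.0217) with overlap. Cxcl5, the third tested ligand of this class, was called in neither.

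The ligands Ccl2, Ccl7, Ccl8 and Ccl12 were listed together as monocyte-attracting, with the receptor Ccr2, and the receptor of each was not tested. Ccl2 measured 8.41, 6.84, 7.47 and 7.50 in untreated AKT-NRAS tumours against 4.88, 4.64, 5.38 and 4.84 in AKT-CAT tumours, where only tumour 3 was detected. The groups were far apart, by 2.62 ± 0.30 (6.15-fold, adjusted p = 4.61e-08), and with DDC by 2.42 ± 0.30 (5.34-fold, adjusted p = 1.01e-07). Ccl7 measured 7.12, 5.87, 6.84 and 7.47 in AKT-NRAS tumours and was detected in none of the AKT-CAT tumours, a difference of at least 3.28-fold (adjusted p = 7.73e-08). With DDC the Ccl7 difference was at least 1.37-fold (adjusted p = 0.00134).

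Ccl8 measured 6.50, 9.38, 9.64 and 9.23 in untreated AKT-NRAS tumours and 4.87, 5.25, 4.65 and 4.84 in AKT-CAT tumours, 3.79 ± 0.61 higher (13.8-fold, adjusted p = 1.28e-05). AKT-NRAS tumour 1 was low but still above every AKT-CAT tumour. Ccl12, a mouse ligand of Ccr2, measured 5.33, 8.09, 7.71 and 8.72 against 4.80, 4.84, 4.63 and 5.34 (2.56 ± 0.45, adjusted p = 3.86e-05), and the groups overlapped through AKT-NRAS tumour 1. With DDC neither was called: Ccl8 differed by -0.43 ± 0.61 (adjusted p = 0.637) and Ccl12 by 0.82 ± 0.45 (adjusted p = 0.156).

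Cxcl13, which draws B cells and follicular T cells through Cxcr5, had the largest difference of the 38 genes in the untreated tumours. It measured 10.89, 9.80, 12.27 and 11.49 in AKT-NRAS tumours and 5.58, 5.96, 4.48 and 5.33 in AKT-CAT tumours, 5.78 ± 0.43 higher (54.8-fold, adjusted p = 1.17e-11). With DDC it measured 9.61, 9.45, 9.09 and 9.27 against 5.78, 5.46, 5.65 and 4.75 (3.94 ± 0.43, 15.4-fold, adjusted p = 1.09e-08). Both AKT-NRAS groups lay above all other 8 groups, whose highest single value was 7.52, in AKT-CAT non-tumoral liver 1. Of 5 B and plasma cell markers 1 was called higher and 0 lower in the untreated comparison, where 37.4% of all tested genes were called. Of these 5, 2 to 4 were detected per untreated AKT-NRAS tumour and 0 to 2 per untreated AKT-CAT tumour. Their summed log2 levels, 7.338 to 7.786 and 6.929 to 7.54, overlapped, and the part of B cells was not tested.

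**Figure D2:**
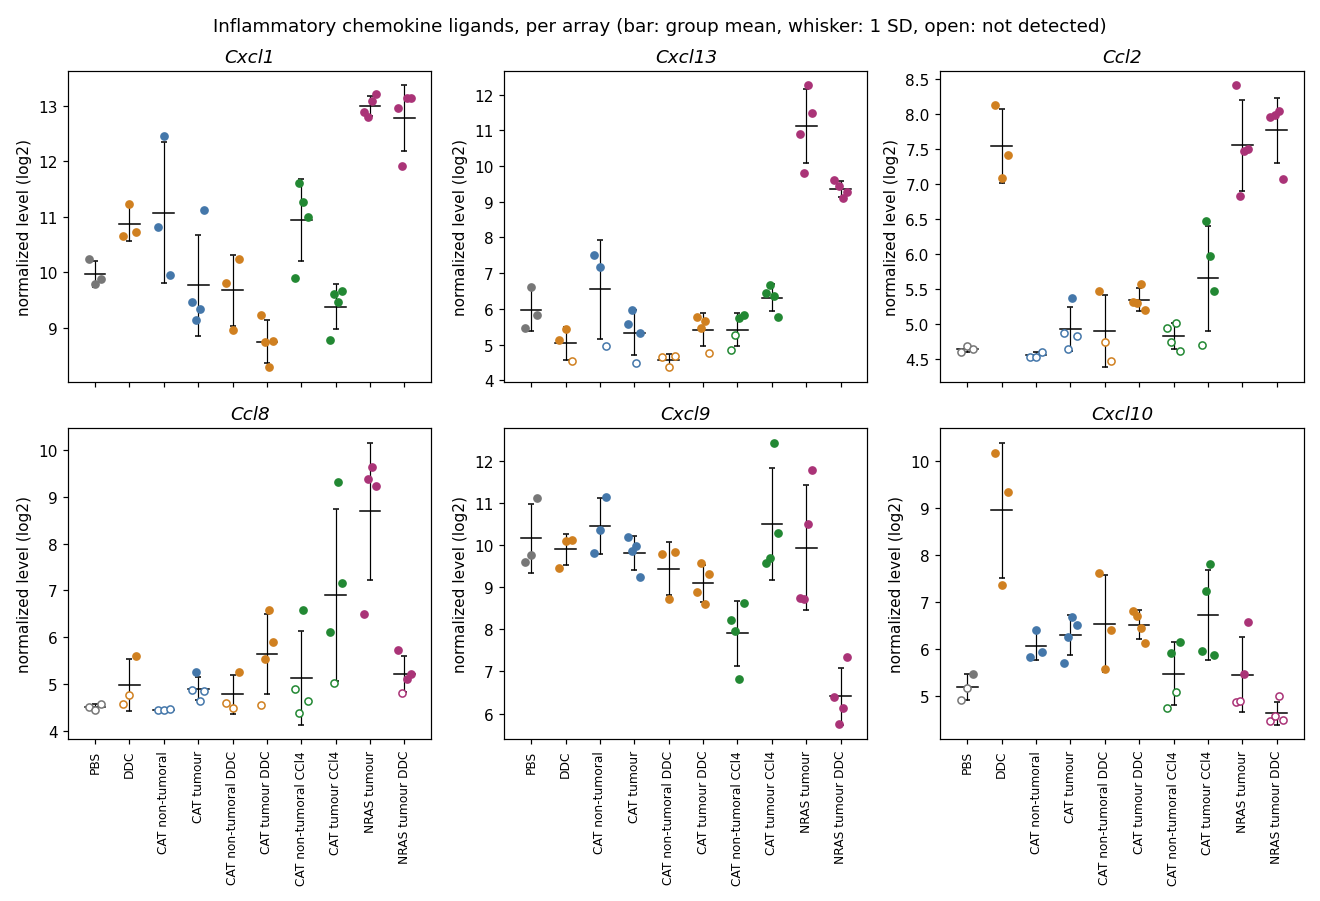
Normalized log2 level (vertical axis) of Cxcl1, Cxcl13, Ccl2, Ccl8, Cxcl9 and Cxcl10 on each array, by group (horizontal axis); points are arrays, open points were not detected, bars are group means and whiskers 1 SD. The group means are highest in AKT-NRAS tumours for Cxcl1 and Cxcl13, in DDC livers and AKT-NRAS tumours for Ccl2 and in DDC livers for Cxcl10, and lowest in AKT-NRAS tumours with DDC for Cxcl9.

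The type 2 ligand Ccl17, which attracts Ccr4-bearing T cells, measured 5.98, 6.07, 7.66 and 6.73 in untreated AKT-NRAS tumours and was detected in 0 of the 4 AKT-CAT tumours. The difference was at least 2.83-fold (adjusted p = 4.72e-08), and with DDC at least 1.73-fold (adjusted p = 9e-05). Ccl17 was detected in every AKT-NRAS tumour and in only 1 array of any other group, DDC liver 2. The eosinophil ligand Ccl11 was called in the untreated comparison (1.20 ± 0.26, adjusted p = 0.000531) although the groups overlapped, and Ccl22, a partner of Ccl17 at the same receptor, was not called.

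Among the epithelial and membrane-bound ligands, Cxcl14 was 1.83 ± 0.38 higher (adjusted p = 0.000336) and Cx3cl1 0.92 ± 0.22 higher (adjusted p = 0.00113) in untreated AKT-NRAS tumours. Cx3cl1, the membrane-bound ligand of Cx3cr1, was also higher with DDC, by 0.64 ± 0.22 (adjusted p = 0.0185), though the groups overlapped and this call was lost without any 1 of 3 single arrays (highest adjusted p 0.072). Ccl6, detected in none of the AKT-CAT tumours (at least 2-fold higher, adjusted p = 0.0151), Ccl25 (1.12 ± 0.23, adjusted p = 0.000283) and Cxcl16 (0.50 ± 0.20, adjusted p = 0.0453) were called in the untreated comparison only, which was not a test of a difference between the comparisons.

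Of the receptors, Cxcr4, which binds Cxcl12, measured 6.83, 8.73, 7.26 and 8.28 in untreated AKT-NRAS tumours and 6.27, 6.18, 5.47 and 6.47 in AKT-CAT tumours. The groups did not overlap and differed by 1.68 ± 0.36 (adjusted p = 0.000468). With DDC the difference was 0.99 ± 0.36 (adjusted p = 0.0291), a call that was lost in 5 of 8 fits that each left out 1 array (highest adjusted p 0.102). Ccr6, the receptor of Ccl20, was at least 1.64-fold higher in untreated AKT-NRAS tumours (adjusted p = 0.00229). Ackr1, an atypical receptor of venular endothelium and red cells that binds many inflammatory ligands, ran the other way. It measured 5.20, 4.62, 4.90 and 5.07 in AKT-NRAS and 7.76, 6.50, 6.37 and 6.13 in AKT-CAT tumours, and fell by 1.74 on the log2 scale (adjusted p = 0.000325).

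With DDC, the interferon-inducible ligands that draw Cxcr3-bearing T and NK cells were lower in AKT-NRAS tumours. Cxcl9 measured 6.39, 5.76, 6.14 and 7.35 in AKT-NRAS and 8.89, 9.58, 8.59 and 9.31 in AKT-CAT tumours (-2.68 ± 0.56, adjusted p = 0.000272). Cxcl10 was detected in none of the 4 AKT-NRAS tumours with DDC and in all 4 AKT-CAT tumours with DDC, at least 2.8-fold lower (adjusted p = 0.00175). Ccl5, an attractant of T cells and macrophages, differed by -1.62 ± 0.50 (adjusted p = 0.0105). In the untreated tumours none of these was called: Cxcl9 differed by 0.11 ± 0.56 (adjusted p = 0.902), Cxcl10 by -0.84 ± 0.47 (adjusted p = 0.171) and Ccl5 by 0.74 ± 0.50 (adjusted p = 0.261). This was not a test of a difference between the comparisons. In that test, given below, Cxcl9 was called and Cxcl10 and Ccl5 were not. Of the 8 T and NK cell markers, 0 were called higher and 2 lower with DDC, where 39.3% of all tested genes were called and 18.3% were lower. Without DDC limma called 0 of these markers, and 0 had an unadjusted p under 0.05, against 37.4% of all tested genes called. The part of T and NK cells was not tested.

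**Figure D3:**
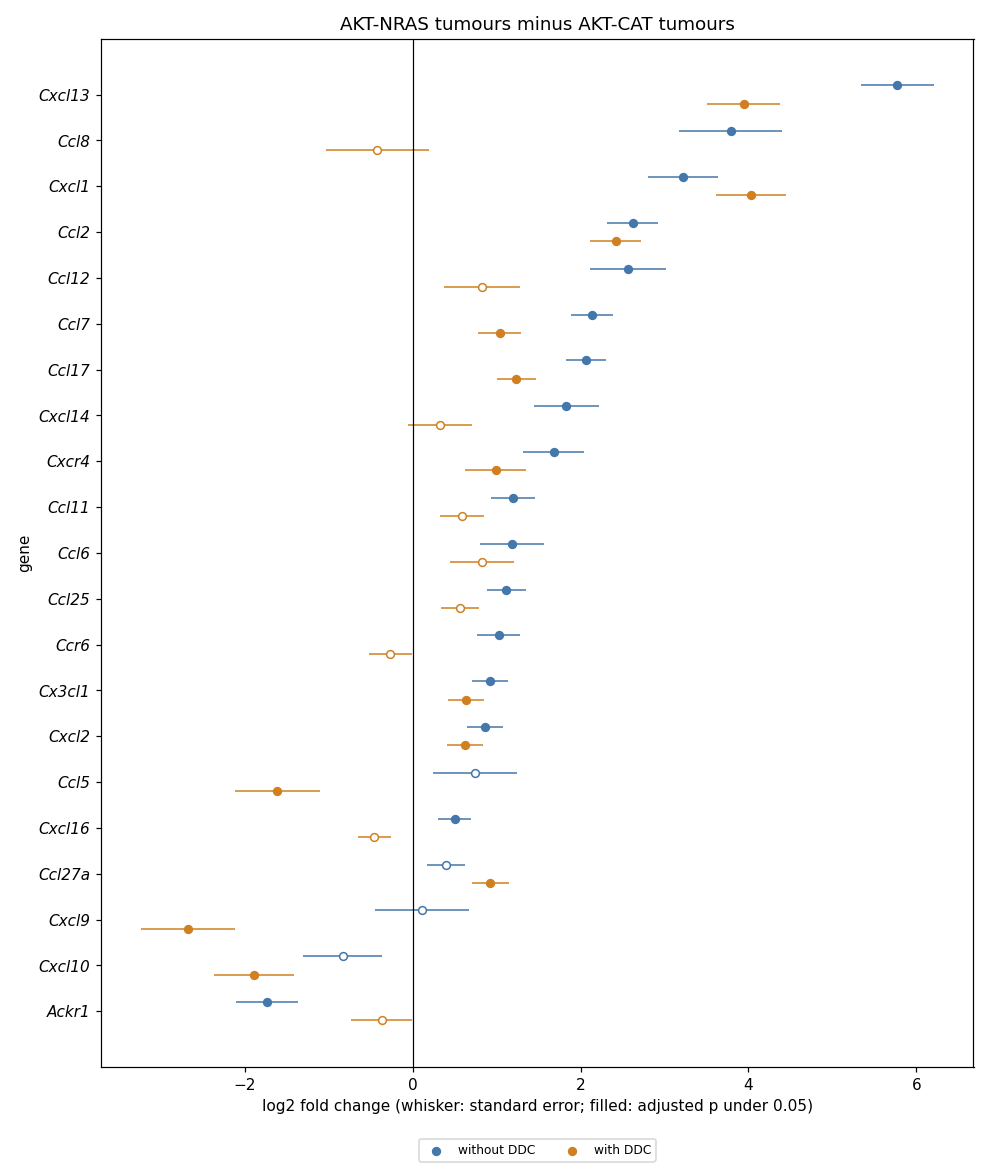
Log2 fold change of AKT-NRAS over AKT-CAT tumours (horizontal axis) without DDC and with DDC for the 21 chemokine and receptor genes called in at least 1 of these comparisons; whiskers are standard errors and filled points have an adjusted p under 0.05. Cxcl13, Cxcl1 and Ccl2 lie far to the right in both, while Ccl8, Cxcl9 and Ccl5 lie to the right of 0 without DDC and to the left with it.

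Against PBS livers, untreated AKT-NRAS tumours had 15 chemokine and receptor genes higher and 6 lower, 55.3% called against 50% of all tested genes. No slide held samples of both groups, so slide and tumour cannot be told apart here. Cxcl13 was 5.15 ± 0.47 higher (35.6-fold, adjusted p = 1.56e-10), Cxcl1 3.02 ± 0.45 higher (adjusted p = 1.59e-06) and Cx3cr1 2.28 ± 0.47 higher (adjusted p = 0.000144). In PBS liver, Ccl2, Ccl7, Ccl8, Ccl12, Cxcl14 and Cx3cl1 were not detected on any array, so their rises are bounds: at least 4.36-fold for Ccl2, 2.63-fold for Ccl7, 9.55-fold for Ccl8, 4.08-fold for Ccl12, 4.41-fold for Cxcl14 and 5.52-fold for Cx3cl1 (adjusted p between 5.92e-11 and 9.94e-06). Among the lower genes, Ackr1 fell by 2.57, the eosinophil ligand Ccl24 by 2.10, and the homeostatic ligands Ccl21a by 1.69, Ccl19 by 1.55 and Cxcl12 by 1.37 on the log2 scale (adjusted p between 7.46e-07 and 0.0103). Ccl27a, a skin-type ligand of Ccr10, fell by 0.68 (adjusted p = 0.0206). Leaving out PBS liver 3 took Ccl21a to an adjusted p of 0.0522, and Ccl27a lost its call in 3 of 7 such fits (highest adjusted p 0.0687).

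DDC in AKT-NRAS tumours lowered chemokines and raised none. It lowered 7 of the 38 tested genes, 18.4%, against 1.94% of all tested genes, with all 8 tumours on the same slide. Cxcl9 measured 8.74, 8.72, 10.50 and 11.78 without DDC and 6.39, 5.76, 6.14 and 7.35 with it, and fell by 3.52 on the log2 scale (adjusted p = 0.000328). Ccl8 measured 5.72, 4.82, 5.11 and 5.21 with DDC against 6.50, 9.38, 9.64 and 9.23 without, and fell by 3.47 (adjusted p = 0.00114). Neither ligand overlapped between the groups, and both also spread more without DDC than with it.

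Ccl7 fell by 1.26 (adjusted p = 0.00521), Ccl5 by 2.02 (adjusted p = 0.0283), Cxcl13 by 1.76 (adjusted p = 0.0259), Ccl11 by 1.02 (adjusted p = 0.033), and Ccr6 was at least 1.73-fold lower (adjusted p = 0.0155). Ccl2 and Cxcl1 did not pass the test, and differed by 0.21 ± 0.30 (adjusted p = 0.897) and -0.21 ± 0.42 (adjusted p = 0.942). The calls of Cxcl9, Ccl8 and Ccl7 held without any single array, but with the authors' processed values Ccl8 differed by -4.32 (adjusted p = 0.146) and Ccl7 by -1.59 (adjusted p = 0.573), and on the compared groups alone Ccl7 had an adjusted p of 0.0506. The calls of Ccl5 and Ccl11 were each lost in 7 of 8 fits without 1 array, that of Cxcl13 in 5 and that of Ccr6 in 3 (highest adjusted p 0.136, 0.127, 0.147 and 0.0938). With the authors' processed values 3 genes were called, Cxcl9, Ccl5 and Cxcl10. On the mean of its probes Ccr6 differed by -0.60 (adjusted p = 0.0974).

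Other interferon-responsive genes moved the same way: 4 of 10 were called lower and 0 higher, with a list median of -0.78 against 0.0097 over all tested genes, and Gbp2, an interferon-induced GTPase, fell by 2.03 (adjusted p = 0.01). Of 12 NF-kB target genes limma called 0, with 2 at an unadjusted p under 0.05 and a list median of 0.04. The macrophage marker Adgre1 fell by 1.15 (adjusted p = 0.012), and it was the 1 of 6 monocyte and macrophage markers called lower, with 0 higher and 3 at an unadjusted p under 0.05. Lyz2 differed by -0.69 (adjusted p = 0.296), while Cd14, whose mean level of 13.12 without and 13.10 with DDC makes up most of the list's summed level, differed by -0.01 (adjusted p = 0.999). Of the stellate cell and fibroblast markers 2 of 7 fell and 0 rose. Of 8 T and NK cell markers limma called 0, but 5 had an unadjusted p under 0.05 and the list median was -0.70, with 5 to 7 of the 8 detected per array without and 1 to 5 with DDC. Among them Cd3g, a subunit of the T cell receptor complex, differed by -1.20 (adjusted p = 0.054). Of 5 B and plasma cell markers limma called 0, with 2 at an unadjusted p under 0.05. The part of these markers in the chemokine result was not tested.

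In control liver DDC raised more chemokine genes than it lowered. It raised 8 of the 38 tested genes and lowered 4, 31.6% against 22.7% of all tested genes, with both groups on the same slide. Cx3cr1, the receptor of Cx3cl1 on monocytes and macrophages, measured 9.96, 9.79 and 9.71 in DDC livers and 4.98, 5.47 and 5.96 in PBS livers, 4.35 ± 0.50 higher (20.4-fold, adjusted p = 1.12e-07). Cxcl10 measured 10.17, 7.37 and 9.34 against 4.92, 5.17 and 5.47 (3.77 ± 0.55, 13.7-fold, adjusted p = 5.77e-06). Ccl2 measured 8.13, 7.09 and 7.42 and was not detected in PBS livers, at least 4.33-fold higher (adjusted p = 2.27e-07). None of these 3 genes overlapped between the groups, and the DDC values of Cxcl10 spread most, with DDC liver 2 lowest.

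The ligand Cx3cl1 rose with its receptor, from undetected in PBS livers to 7.21, 8.06 and 7.37, at least 4.33-fold (adjusted p = 2.92e-08). Cxcl14 rose at least 4.36-fold (adjusted p = 6.37e-05). Cxcl16, the membrane-bound ligand of Cxcr6, measured 9.93, 9.96 and 9.88 against 7.87, 7.69 and 8.25, a tight rise of 1.99 ± 0.23 (adjusted p = 1.12e-07). Ccl4, an attractant of macrophages and NK cells, rose by 2.11 ± 0.52 (adjusted p = 0.00313). Ccl7 was called higher (adjusted p = 0.0135), but it was detected in 0 of 3 PBS livers and 2 of 3 DDC livers at a mean of 5.41, near the lowest detected level, so it has no fold. This call was lost without DDC liver 1 (adjusted p = 0.119). Cxcl9, an interferon-inducible ligand like Cxcl10, was already bright in PBS livers and differed by -0.26 ± 0.65 (adjusted p = 0.826).

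The genes that fell with DDC were Ccl19, at least 2.6-fold lower (adjusted p = 0.000135), Ccl24 by 1.52 (adjusted p = 0.00151), Ccl27a by 1.41 (adjusted p = 0.000153) and the gut-type ligand Ccl25 by 1.12 (adjusted p = 0.00248). With the authors' processed values Ccl24 had an adjusted p of 0.327. Beside these, 5 of 6 monocyte and macrophage markers rose and 0 fell, with summed log2 levels of 12.22 to 12.58 in DDC and 9.589 to 9.838 in PBS livers. Among them Gpnmb rose by 5.05 and Trem2 by 3.48. Of 7 stellate cell and fibroblast markers 4 rose, and of 8 T and NK cell markers 1 rose and 0 fell. Of 12 NF-kB target genes 8 rose and 0 fell (list median 1.51, all tested genes -0.039), led by Relb at 2.64, a subunit of NF-kB itself. The part of the marker genes in the chemokine changes was not tested.

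**Figure D4:**
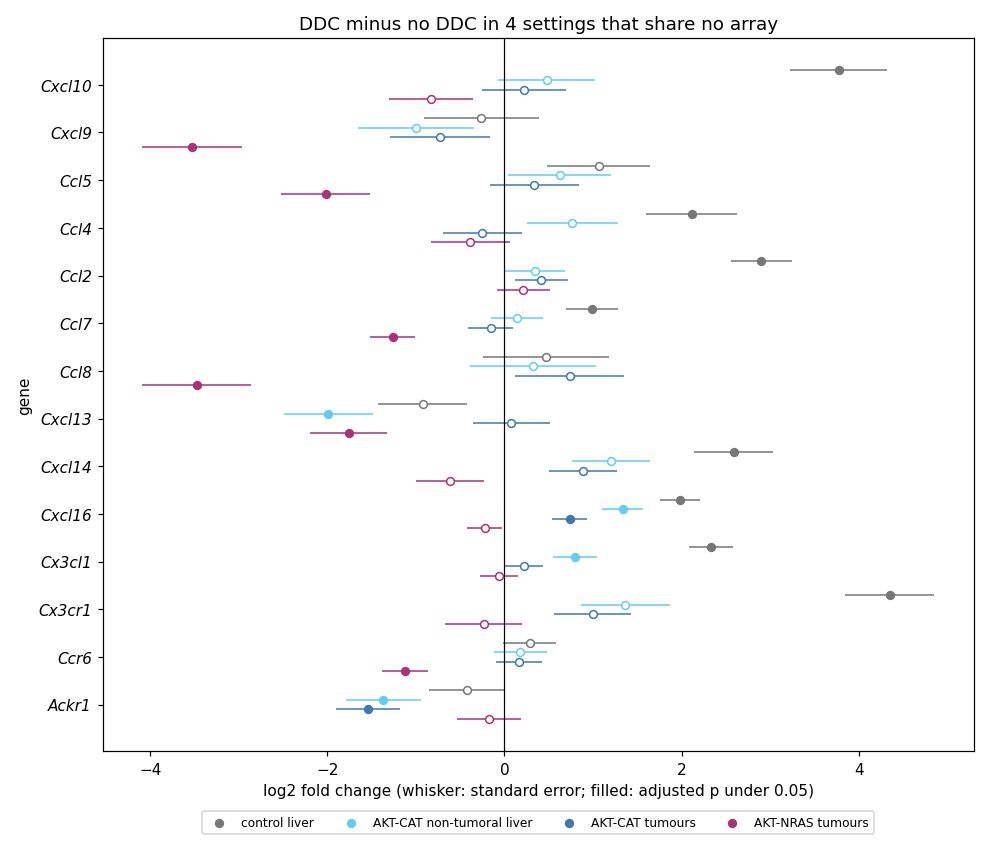
Log2 fold change of DDC over no DDC (horizontal axis) for 14 chemokine and receptor genes in control liver, AKT-CAT non-tumoral liver, AKT-CAT tumours and AKT-NRAS tumours, which share no array; whiskers are standard errors and filled points have an adjusted p under 0.05. Cxcl10, Ccl2, Cx3cl1 and Cx3cr1 lie farthest to the right in control liver, and Cxcl9, Ccl5 and Ccl8 lie farthest to the left in AKT-NRAS tumours.

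DDC in AKT-CAT mice asked whether liver that carries driver genes answers in the same way. In non-tumoral liver DDC raised 3 genes and lowered 6, 23.7% against 18.1% of all tested genes. Cxcl16 rose by 1.33 ± 0.23 (adjusted p = 7.64e-05), Cx3cl1 by 0.79 ± 0.25 (adjusted p = 0.0242) and Ccl21a by 1.90 ± 0.58 (adjusted p = 0.0208). Cxcl12, the homeostatic ligand of Cxcr4, measured between 11.87 and 12.12 with DDC and between 13.00 and 13.09 without, and fell by 1.05 (adjusted p = 0.00054). Cxcl13 was at least 2.6-fold lower (adjusted p = 0.00534), and Cxcl1, Ackr1 and Ccl24 fell by 1.40, 1.37 and 1.13 (adjusted p between 0.0194 and 0.0409). Ccl19 was called lower (adjusted p = 0.0198), but it was detected in 1 of 3 livers without DDC and 0 of 3 with it. Its mean without DDC was 5.56, near the lowest detected level, so it has no fold. The groups lay on different slides, and with slide as a block none of the 9 was called. Cxcl12 then differed by -1.20 (adjusted p = 0.0852), Cxcl16 by 1.26 (adjusted p = 0.103) and Cxcl1 turned to 0.40 (adjusted p = 0.893). With median scaling 7 genes were higher and 2 lower. All but Cxcl12 and Cxcl16 also lost their calls in 1 to 4 of 6 fits that each left out 1 array (adjusted p up to 0.348).

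In AKT-CAT tumours DDC raised 1 gene and lowered 2, 7.89% against 13.3% of all tested genes. Cxcl16 measured 9.93, 9.84, 9.95 and 9.47 with DDC and 9.12, 8.76, 9.36 and 9.01 without (0.74 ± 0.20, adjusted p = 0.0129), without overlap. Ackr1 fell by 1.54 (adjusted p = 0.00537) and Ccl9, a ligand of Ccr1 in mice, by 0.88 (adjusted p = 0.023). Beside Ackr1, 3 of 7 endothelial markers and 2 of 4 Kupffer cell markers fell and none rose. The summed endothelial level was 9.153 to 10.85 with DDC and 11.81 to 13.16 without, and the Kupffer cell sum 8.087 to 9.968 and 10.73 to 11.91, and the part of these cells was not tested. With slide as a block, and likewise within slide 2, Ackr1 differed by -1.41 (adjusted p = 0.0885 and 0.197), Cxcl16 by 0.64 (0.181 and 0.295) and Ccl9 by -0.55 (0.359 and 0.523), so that none was called. With median scaling 3 genes were higher and 1 lower. Ccl9 was also lost without any 1 of 3 arrays (adjusted p up to 0.116) and Cxcl16 without any 1 of 2 (up to 0.0531).

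The DDC differences themselves were then compared between settings. Between AKT-NRAS tumours and control liver 17 of the 38 genes differed, 3 higher and 14 lower, 44.7% against 12.8% of all tested genes. Each of these DDC differences lies within 1 slide, so a slide block does not test it. Cxcl10 differed by -4.60 ± 0.72 (adjusted p = 4.2e-05), Cx3cr1 by -4.58 ± 0.66 (adjusted p = 1.14e-05), Ccl8 by -3.94 ± 0.94 (adjusted p = 0.00447), Cxcl9 by -3.26 ± 0.86 (adjusted p = 0.0103) and Ccl2 by -2.69 ± 0.46 (adjusted p = 0.00013). Cx3cl1 and Cxcl16, which DDC raised in control liver, differed by -2.40 ± 0.33 (adjusted p = 5.51e-06) and -2.21 ± 0.30 (adjusted p = 5.26e-06), as their own differences in AKT-NRAS tumours were -0.06 ± 0.22 (adjusted p = 0.979) and -0.22 ± 0.20 (adjusted p = 0.763). Ccl27a, Ccl24 and Ccl19, which DDC lowered in control liver, differed by 1.61, 1.47 and 1.38 (adjusted p between 0.00161 and 0.0282). Ccl24 and Ccl19 were detected in at most 2 of 4 AKT-NRAS tumours with or without DDC, so a fall could hardly be read there and their values restate the fall in control liver. Likewise Ccl8 was detected in 0 of 3 PBS and 1 of 3 DDC livers, so a fall could hardly be read in control liver. Without DDC, mean levels of Ccl2, Cx3cl1 and Cxcl14 in AKT-NRAS tumours were 7.56, 7.90 and 7.57. In DDC livers they were 7.55, 7.55 and 7.56. Cx3cr1 and Cxcl10 stood lower in these tumours, at 7.75 and 5.45 against 9.82 and 8.96 in DDC livers. Ccl24 lost its call without any 1 of 4 arrays (adjusted p up to 0.0819), and Ccl19 and Ccl4 each lost theirs without PBS liver 3 (0.0561 and 0.0545). This comparison was added after the values had been seen.

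Between AKT-CAT non-tumoral liver and control liver 7 genes differed, 2 higher and 5 lower, 18.4% against 15.2% of all tested genes, in a comparison that was likewise added after the values had been seen. Cxcl10 differed by -3.30 ± 0.77 (adjusted p = 0.00517), Cx3cr1 by -2.98 ± 0.71 (adjusted p = 0.00541), Ccl2 by -2.56 ± 0.49 (adjusted p = 0.00104) and Cx3cl1 by -1.54 ± 0.35 (adjusted p = 0.00407). With slide as a block none of the 7 was called, and Ccl2 then differed by -2.69 (adjusted p = 0.0729). Cxcl1 and Ccl27a were also lost in 3 and 2 of 12 fits without 1 array (adjusted p up to 0.0902 and 0.0563). Between AKT-NRAS and AKT-CAT tumours 4 genes differed, all lower, 10.5% against 3.43% of all tested genes: Ccl8 (-4.21 ± 0.87, adjusted p = 0.00636), Cxcl9 (-2.79 ± 0.80, adjusted p = 0.0462), Ccr6 (-1.29 ± 0.37, adjusted p = 0.0447) and Cxcl16 (-0.96 ± 0.28, adjusted p = 0.04999). Ccl8 held without each of the 16 arrays but not with the authors' processed values (-5.27, adjusted p = 0.149), where none of the 4 was called, and Cxcl9, Ccr6 and Cxcl16 were lost in 12 or 13 of the 16 such fits. In AKT-CAT tumours without DDC, Ccl8 was detected in 1 of 4 (mean 4.90) and Ccr6 in 0 of 4 (mean 4.80). A fall with DDC could hardly be read there, so the values of Ccl8 and Ccr6 mostly restate the fall in AKT-NRAS tumours. Between AKT-CAT tumours and non-tumoral liver limma called 0 of the 38 genes, against 3.46% of all tested genes, and 4 had an unadjusted p under 0.05.

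Tumour was compared with non-tumoral liver in AKT-CAT mice without an agent, with DDC and with CCl4, in samples that the 3 comparisons do not share. Ackr1 was called lower in the tumours each time, though in none of the 3 with the authors' processed values, and Cx3cl1 and Cxcl16 were higher and Cxcl12 lower in tumours without an agent and with CCl4. Without an agent 2 genes were higher and 3 lower, 13.2% against 11.2% of all tested genes; with DDC 0 were higher and 1 lower, 2.63% against 5.77%; with CCl4 4 were higher and 8 lower, 31.6% against 15.2%. Of the 5 genes called without an agent 4 were also called with CCl4 in the same direction, 80% of the first list and 33.3% of the second.

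Ackr1 measured 7.76, 6.50, 6.37 and 6.13 in untreated AKT-CAT tumours and 8.11, 8.30 and 8.17 in non-tumoral liver, and fell by 1.51 (adjusted p = 0.0105). With DDC it measured 4.53, 5.12, 5.22 and 5.71 against 6.10, 7.34 and 7.04, and fell by 1.68 (adjusted p = 0.0116), and with CCl4 5.43, 4.76, 6.47 and 5.46 against 7.20, 7.77, 5.94 and 7.34, and fell by 1.54 (adjusted p = 0.00331). The groups overlapped with CCl4 only. With the authors' processed values Ackr1 differed by -1.67, -3.16 and -2.19 in that order (adjusted p = 0.318, 0.0599 and 0.115), and with median scaling by -0.98 without an agent (adjusted p = 0.0785). Endothelial markers moved beside it: limma called 0 of 7 without an agent (2 at an unadjusted p under 0.05), 3 of 7 fell with DDC and 4 of 7 with CCl4, and none rose. Their summed log2 level was 11.81 to 13.16 in tumours and 13.39 to 13.47 in non-tumoral liver without an agent, 9.153 to 10.85 and 11.19 to 12.64 with DDC, and 9.734 to 12.17 and 11.73 to 13.41 with CCl4. Their part in the Ackr1 result was not tested.

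Cxcl12 measured 12.66, 11.94, 11.82 and 11.98 in untreated AKT-CAT tumours and 13.00, 13.09 and 13.05 in non-tumoral liver (-0.95 ± 0.20, adjusted p = 0.00138), and fell by 0.88 with CCl4 (adjusted p = 0.000865). Its brightest probe was used, and on the mean of its 3 detected probes the CCl4 difference was -0.54 (adjusted p = 0.161). Cx3cl1 measured 7.03, 6.83, 6.80 and 7.26 against 5.50, 5.93 and 6.56 without an agent (0.98 ± 0.23, adjusted p = 0.00507), and Cxcl16 was 0.95 ± 0.21 higher (adjusted p = 0.00302). None of Cxcl12, Cx3cl1 and Cxcl16 overlapped between tumour and non-tumoral liver. Ccl24 fell by 1.09 (adjusted p = 0.0246) with overlap, a call lost without AKT-CAT tumour 2 or 3 or non-tumoral liver 2 (adjusted p up to 0.247), and Cx3cl1 was lost without non-tumoral liver 1 (adjusted p = 0.064).

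These untreated groups lay partly on different slides. With slide as a block 3 of the 38 genes were called, and Cxcl16 differed by 0.90 (adjusted p = 0.148) and Ccl24 by -0.81 (adjusted p = 0.451). Within slide 3, which held 1 tumour and could hardly give a call, Ackr1 differed by -2.07, Cxcl12 by -1.06, Cx3cl1 by 1.26 and Cxcl16 by 0.90, each in the direction of the full comparison. Fitted on the compared groups alone none of the 5 was called. With median scaling 3 genes were higher and 1 lower. With DDC, Ackr1 differed by -1.36 both in the fit that holds slide fixed (adjusted p = 0.217) and within slide 2 (adjusted p = 0.204), and lost its call without tumour 1, non-tumoral liver 2 or non-tumoral liver 3 (adjusted p up to 0.0911).

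**Figure D5:**
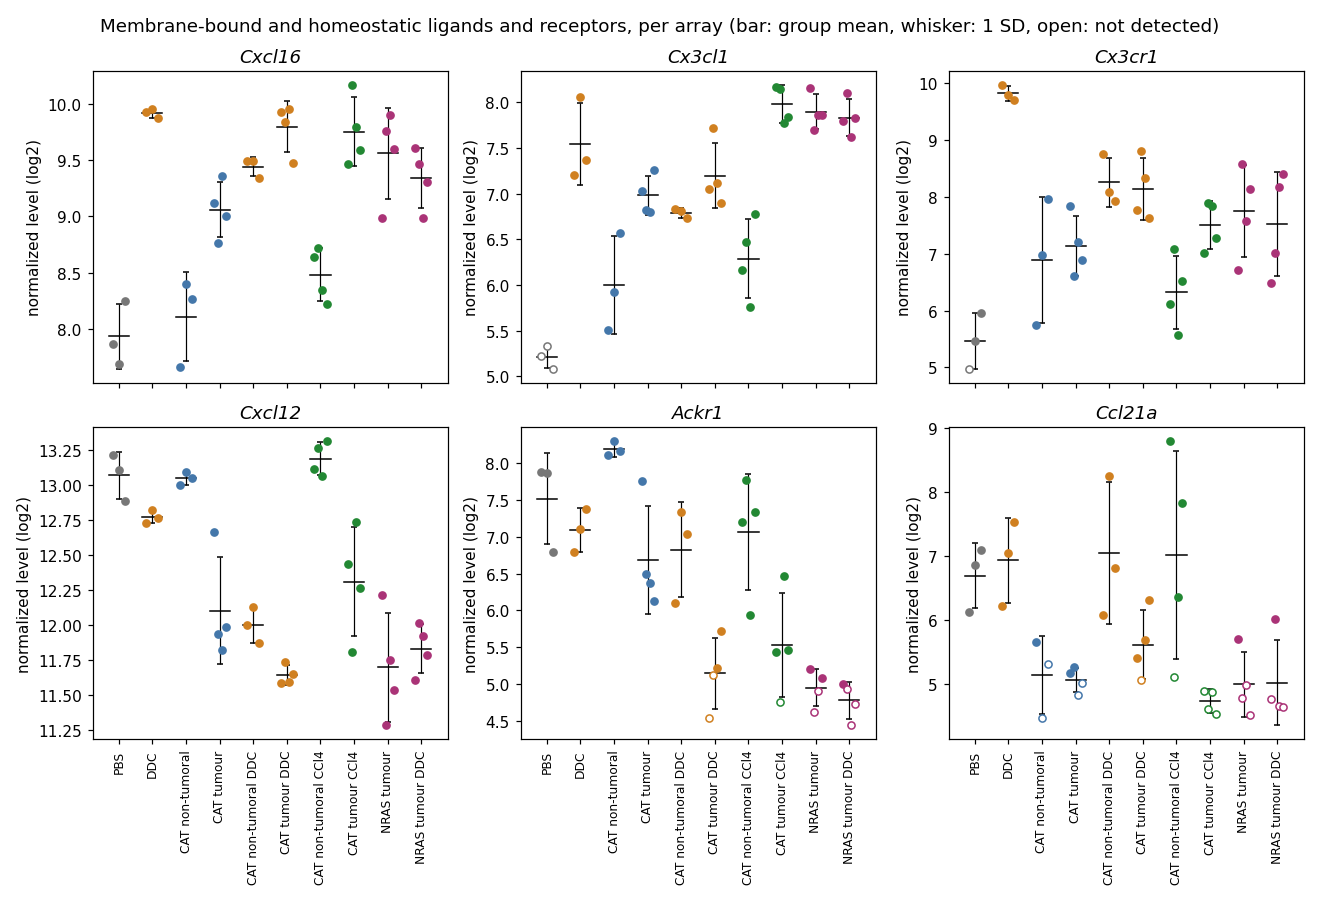
Normalized log2 level (vertical axis) of Cxcl16, Cx3cl1, Cx3cr1, Cxcl12, Ackr1 and Ccl21a on each array, by group (horizontal axis); points are arrays, open points were not detected, bars are group means and whiskers 1 SD. The means of Cxcl16 and Cx3cl1 are lowest in PBS livers, those of Cxcl12 and Ackr1 are lower in tumours than in the matching non-tumoral liver, and Ccl21a was detected in none of the AKT-CAT tumours with CCl4.

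With CCl4 the tumour and non-tumoral samples lay on the same slide. Cxcl9 measured 9.57, 9.71, 12.44 and 10.28 in tumours and 8.22, 7.96, 6.81 and 8.62 in non-tumoral liver, 2.59 ± 0.56 higher (6.03-fold, adjusted p = 0.00149), without overlap. Cx3cl1 was 1.70 ± 0.22 higher (adjusted p = 1.01e-06) and Cxcl16 1.27 ± 0.20 higher (adjusted p = 2.42e-05). Ccl8 was 1.78 ± 0.61 higher (adjusted p = 0.0466), with overlap, and lost its call in 5 of 8 fits without 1 array (adjusted p up to 0.262). Among 10 interferon-responsive genes 3 were higher and 0 lower, led by Ifit2 at 3.33 (adjusted p = 3.6e-06).

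The lymphoid ligand Ccl21a, which guides Ccr7-bearing cells, was detected in none of the CCl4 tumours and measured 8.79, 5.11, 6.35 and 7.82 in non-tumoral liver, at least 3.56-fold lower in tumours (adjusted p = 0.00179). The probes of Ccl21b and Ccl21c were at least 2.28-fold and 1.7-fold lower (adjusted p = 0.0115 and 0.0015), but these genes are near-identical copies of Ccl21a, so each probe may read more than 1 of them. Cxcl1 fell by 1.56 (adjusted p = 0.00915), without overlap. Ccl19 and Ccl27a fell by 0.84 (adjusted p = 0.019) and 0.69 (adjusted p = 0.0334), and lost their calls in 5 and 4 of 8 fits without 1 array (adjusted p up to 0.0833 and 0.124); Ccl21b lost its call in 2 (up to 0.0803). Of 8 neutrophil markers 5 fell and 0 rose, with summed log2 levels of 10.12 to 13.39 in tumours and 12.22 to 15.54 in non-tumoral liver. All 4 Kupffer cell markers fell, and the part of both lists in these results was not tested. With median scaling 6 genes were higher and 6 lower.

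CCl4 against no agent was read in AKT-CAT liver and tumours, each pair on separate slides, so that slide and CCl4 cannot be told apart. In non-tumoral liver 5 genes were higher and 3 lower, 21.1% against 19% of all tested genes. Cxcr4 rose at least 2.36-fold (adjusted p = 0.0028), Ccl21a by 1.87 ± 0.55 (adjusted p = 0.0148), Ccl21b at least 1.92-fold (adjusted p = 0.0188), Ccl21c at least 1.43-fold (adjusted p = 0.00377) and Ccl25 by 1.01 ± 0.25 (adjusted p = 0.00425). Cxcl9 measured 8.22, 7.96, 6.81 and 8.62 with CCl4 and 9.82, 10.37 and 11.14 without, and fell by 2.54 (adjusted p = 0.00345), without overlap. Ackr2, which clears inflammatory CC ligands, fell by 1.55 (adjusted p = 0.00865) and Ackr1 by 1.13 (adjusted p = 0.0416). Of 8 neutrophil markers 6 rose and 0 fell beside these genes, and their part was not tested. With median scaling 6 genes were higher and 2 lower. Calls of Ccl21a and Ccl21b were each lost in 3 of 7 fits without 1 array (adjusted p up to 0.096 and 0.0884), that of Ackr1 in 5 (up to 0.184), that of Ccl25 without non-tumoral liver 2 (0.0674) and that of Ackr2 without non-tumoral liver 3 (0.059).

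In AKT-CAT tumours CCl4 raised 4 genes and lowered 2, 15.8% against 8.29% of all tested genes. Cx3cl1 measured 8.17, 8.15, 7.78 and 7.84 with CCl4 and 7.03, 6.83, 6.80 and 7.26 without (2.01-fold, adjusted p = 0.00346), without overlap, and kept its call under every alternative run. Ccl8 rose 4-fold (adjusted p = 0.0398), Ccl25 by 0.74 ± 0.23 (adjusted p = 0.0419) and Cxcl16 by 0.69 ± 0.20 (adjusted p = 0.0266), while Ackr2 fell by 1.33 (adjusted p = 0.0306) and Ackr1 by 1.16 (adjusted p = 0.0434). Each of these 5 was lost in 4 to 6 of 8 fits without 1 array (adjusted p up to 0.19), on the mean of its probes Ccl25 differed by 0.44 (adjusted p = 0.128), and with median scaling 4 genes were higher and 0 lower. The CCl4 difference was not called as different between tumours and non-tumoral liver for any of the 38 genes by limma, against 0.139% of all tested genes, and 8 had an unadjusted p under 0.05.

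Non-tumoral AKT-CAT liver was set against PBS liver to ask what the driver genes do outside the tumours. There 1 gene was higher and 4 lower, 13.2% against 15.1% of all tested genes. Cx3cl1 was at least 1.48-fold higher (adjusted p = 0.0304), Cxcr4 at least 1.95-fold lower (adjusted p = 0.0225), and Ccl25, Ccl19 and Ccl27a fell by 1.21, 0.93 and 0.81 (adjusted p between 0.00306 and 0.0331). With slide as a block limma called 0 of the 38, and with median scaling 0 were higher and 5 lower; without these changes 10 of the 38 had an unadjusted p under 0.05. Each call but that of Ccl25 was also lost in 4 or 5 of 6 fits without 1 array (adjusted p up to 0.199).

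Neighbouring genes on a chromosome were not always called together, which does not show that they moved apart. On chromosome 11 of GRCm38.p6 the protein-coding genes Ccl2, Ccl7, Ccl11, Ccl12 and Ccl8 follow each other with no other protein-coding gene between them. All 5 were higher in untreated AKT-NRAS than in AKT-CAT tumours, and with DDC only Ccl2 and Ccl7 were called. In AKT-NRAS tumours DDC lowered Ccl7, Ccl11 and Ccl8 of this run, while Ccl2 and Ccl12 were not called (Ccl12 -1.09 ± 0.45, adjusted p = 0.264). Ccl11 fell no further than Ccl12, and the call of Ccl11 was lost in 7 of 8 fits without 1 array. Of the next run, Ccl5, Ccl9, Ccl6, Ccl3 and Ccl4, Ccl6 alone was called in the untreated comparison of tumour types. On chromosome 5, Cxcl1 and Cxcl2 are neighbours and were called together in both comparisons of tumour types. On chromosome 8, Ccl22, Cx3cl1 and Ccl17 follow each other, and Cx3cl1 and Ccl17 were called in both of these comparisons while Ccl22 was in neither. Ccl22 was detected on 3 and Ccl3 on 4 of the 36 arrays, so a change in them could hardly be read.

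Genes that act with chemokines were read from a list of 23 other chemoattractants and signalling genes, of which 18 were tested. In untreated AKT-NRAS against AKT-CAT tumours 3 were higher and 1 lower, a smaller share than the 37.4% of all tested genes called there. The same 37.4% stands beside each marker count below, and slide and driver genes cannot be told apart in this comparison. Pf4, a platelet chemokine whose name falls outside the rule, was 2.71 higher (adjusted p = 4.1e-07), Rgs1, a brake on chemokine receptor signalling, 2.17 higher (adjusted p = 0.0064) and the kinase subunit Pik3cg 1.46 higher (adjusted p = 3.1e-06), while Dpp4, a protease that trims chemokines, fell by 1.48 (adjusted p = 4.3e-08). Of 12 NF-kB target genes 8 were higher and 1 lower in that comparison (list median 1.01, all tested genes 0.037), led by the adhesion molecule Vcam1 at 2.78 (adjusted p = 7.3e-09). Of the 6 monocyte and macrophage markers 5 were higher, led by Cd14 at 4.31, with summed log2 levels of 13.26 to 13.84 in AKT-NRAS and 9.984 to 10.88 in AKT-CAT tumours. Kupffer cell markers ran the other way, with 2 of 4 lower and 0 higher, and of 8 neutrophil markers 2 were higher, S100a8 by 2.68 and S100a9 by 2.10, and 0 lower. The neutrophil marker Ltf differed by -2.03 (adjusted p = 0.127), and the list's summed log2 level, 10.11 to 11.15 in AKT-NRAS and 8.685 to 13.05 in AKT-CAT tumours, overlapped. The part of these cell types in the chemokine differences was not tested.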

How the data were processed

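Total RNA of FVB/n mouse livers and liver tumours was read on 36 single-colour Illumina bead arrays. The deposited intensities are linear probe signals that the authors had not normalized between arrays; 24.8% to 30.2% of them on each array lie below 0, so a background had been subtracted. Detection p-values stand beside them, per the file headers. GenomeStudio is named in the submitters' processing notes, without a version. The authors' processed value table was used as an alternative, and its processing is not given in the sources used here. Detection columns carry names other than the signal columns; each was tied to the signal column that its p-values follow in order.

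Background was corrected from the detection p-values (neqc, offset 16) and arrays were quantile normalized. Probes with a detection p under 0.05 in at least 3 of 36 arrays were kept, and the probe with the highest mean stood for a gene, which left 10765 genes. All 10 groups were fitted at once with limma 3.58.1 in R 4.3.3, and p-values were Benjamini-Hochberg adjusted over all tested genes in each comparison. Where a gene was detected on no array of its lower group, "at least" folds are set against the lowest signal of detected probes. The test was checked on simulated data. Arrays carry no read depth, so their number limits the precision; within a group they correlated at 0.96 to 0.992.

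Groups came from the sample labels. Alternatives were median scaling, the authors' values, no detection filter, the mean of a gene's probes, an offset of 50, only the compared groups, slide as a block or within a slide, a replicate block, and leaving out each array. Members were chosen by symbol and lists by function, both with earlier results of these data known. In each comparison the called genes were named in order of size, up to 8 in each direction, with up to 3 in each direction from the other lists; further genes were named after their values were seen. Both comparisons of DDC differences with control liver were added after values were seen. Sequences and gene order are from RefSeq (GRCm38.p6), read with Python 3.11.15 and pandas 2.3.3; figures were drawn with matplotlib 3.10.9.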

Additional observations from a re-analysis of the deposited data

Results flagged for a closer look

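Each chemokine or receptor gene was read in each group of 4 arrays, where it could be tested, for 1 array apart from the other 3. This was so in 15 of 179 such sets (8.38%), where chance gives about 1 in 20. That rate does not hold for levels under the lowest detected level, which have no order. In the sets of Ccl21a, Ccl21b, Ccl22, Cxcr3 and Xcl1 below, only 1 of the 4 arrays was detected. Among AKT-NRAS tumours with DDC, tumour 4 was low for Ccl2 (7.0754), tumour 2 high for Ccl21a (6.0108) and low for Cxcl1 (11.906), and tumour 3 low for Ccl25 (7.4375). Among untreated AKT-NRAS tumours, tumour 1 was low for Ccl8 (6.4965), against 9.23 to 9.64 in the other 3. Among untreated AKT-CAT tumours, tumour 4 was high for Cxcl1 (11.119) and Ccl22 (5.3192), tumour 3 for Ccl9 (12.517) and tumour 1 for Cxcr3 (5.4876), and with DDC tumour 4 was high for Ccl21b (5.7338). Untreated AKT-CAT tumour 4 lay on slide 3 and the other 3 on slide 2. With CCl4, AKT-CAT tumour 2 was low for Ccl6 (4.811) and tumour 3 high for Xcl1 (6.132), and non-tumoral liver 3 was high for Ccl25 (7.9626), liver 1 low for Ccl4 (6.5541) and liver 4 high for Cxcl14 (7.0107). All are normalized log2 levels.

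The DDC difference itself differed between settings for several genes, by limma with Benjamini-Hochberg adjustment over all tested genes. Where a gene lay near the lowest detected level without DDC, a fall could hardly be read. AKT-NRAS minus AKT-CAT tumours gave -4.213 for Ccl8, -2.791 for Cxcl9, -1.29 for Ccr6 and -0.9586 for Cxcl16 on the log2 scale. AKT-CAT non-tumoral liver minus control liver gave -3.296 for Cxcl10, -2.983 for Cx3cr1, -2.558 for Ccl2, -2.304 for Cxcl1, -1.544 for Cx3cl1, 1.27 for Ccl27a and 1.566 for Ccl25. AKT-NRAS tumours minus control liver gave -4.604 for Cxcl10, -4.583 for Cx3cr1, -3.94 for Ccl8, -3.261 for Cxcl9, -3.206 for Cxcl14, -3.085 for Ccl5, -2.687 for Ccl2, -2.499 for Ccl4, -2.399 for Cx3cl1, -2.246 for Ccl7, -2.206 for Cxcl16, -2.099 for Ccl12, -1.412 for Ccr6, -1.301 for Ccl17, 1.379 for Ccl19, 1.472 for Ccl24 and 1.605 for Ccl27a.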

How the results depend on the processing

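Of 124 named calls 58 held under every alternative run and 66 were lost under at least 1; 77 held in every fit without 1 array. In some comparisons the count of called chemokine and receptor genes stayed within 1.5 times under every alternative that could be run. These were DDC against PBS liver and the DDC difference of AKT-NRAS tumours against control liver. AKT-NRAS tumours against PBS liver, and against AKT-CAT tumours without or with DDC, were the others. In these others, and for CCl4 against no agent, no slide linked the groups and slide as a block could not be fitted. Their calls could not be lost to it, and some are among the 58 that held. The count in non-tumoral AKT-CAT against PBS liver (5) was 1 with only the compared groups, 0 with slide as a block and 2 to 5 without 1 array. AKT-CAT tumours against non-tumoral liver (5) gave 0 with only the compared groups, 3 with slide as a block and 0 within slide 3, whose 1 tumour could hardly give a call. With DDC (1) the authors' values, slide as a block and slide 2 alone gave 0, and fits without 1 array 0 to 3. DDC in AKT-CAT tumours (3) gave 0 with slide as a block, 0 within slide 2 and 1 to 3 without 1 array. CCl4 in AKT-CAT tumours (6) gave 3 with the authors' values, 3 with no detection filter, 1 with only the compared groups and 2 to 5 without 1 array. DDC in non-tumoral liver (9) gave 4 with only the compared groups, 0 with slide as a block, where Cxcl1 reversed to 0.3966, and 4 to 10 without 1 array, and CCl4 there (8) gave 3 with only the compared groups. DDC in AKT-NRAS tumours (7) gave 3 with the authors' values, 4 with only the compared groups and 3 to 8 without 1 array. The DDC difference of AKT-NRAS against AKT-CAT tumours (4) gave 7 with median scaling, 0 with the authors' values, 1 with no detection filter, 1 with the mean of a gene's probes, 1 with slide as a block and 1 to 6 without 1 array. That of AKT-CAT tumours against non-tumoral liver (0) gave 1 with the authors' values, 1 with the mean of probes and 0 to 1 without 1 array, and the CCl4 difference (0) gave 0 to 1 without 1 array. That of non-tumoral against control liver (7) gave 0 with slide as a block. The causes were not tested. The replicate block left 2 of the 4 genes of the first of these differences and kept every other count within 1.5 times; samples of the same number did not deviate together (correlations -0.291 to 0.358 over 150 pairs, median 0.0047). With the authors' values the higher and lower calls split 10 to 3 in DDC against PBS liver, 2 to 3 in non-tumoral AKT-CAT against PBS liver, 4 to 3 for DDC in non-tumoral liver, 4 to 1 in untreated AKT-CAT tumours against non-tumoral liver, 4 to 5 in those with CCl4 and 1 to 15 in the DDC difference of AKT-NRAS tumours against control liver. With an offset of 50, non-tumoral AKT-CAT against PBS liver split 0 to 4.

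Median scaling shifted the median of all genes by -0.152 in non-tumoral AKT-CAT against PBS liver, 0.227 in untreated AKT-CAT tumours against non-tumoral liver, 0.167 and 0.41 for DDC in AKT-CAT tumours and non-tumoral liver, 0.145 for CCl4 in non-tumoral liver, and -0.148, -0.217, -0.127 and 0.374 in the differences of agents in the order above. Counts of calls over all tested genes moved more than 1.5 times as follows. With only the compared groups they went from 1621 to 223 in non-tumoral AKT-CAT against PBS liver, from 1205 to 357, 621 to 342 and 1641 to 1029 in AKT-CAT tumours against non-tumoral liver without an agent, with DDC and with CCl4, from 1428 to 851 and 1948 to 1088 for DDC in AKT-CAT tumours and non-tumoral liver, and from 892 to 345 and 2041 to 687 for CCl4. With slide as a block the first 3 of these became 0, 341 and 40 (41 within slide 3 and 4 within slide 2), and DDC gave 284 (0 within slide 2) and 283. Median scaling gave 4098 for DDC in non-tumoral liver and 426 in AKT-NRAS tumours, where 209 became 87 with the authors' values. The differences of agents, 369, 372, 15 and 1636, became 599, 694, 3 and 2899 with median scaling and 80, 85, 5 and 59 with slide as a block, the first 192 and the CCl4 one 8 with the authors' values, and the others 161, 0 and 994 with only the compared groups. Slide as a block could not be fitted where no slide linked the groups. A gene near background, such as Ccl7 or Ccl12, has differences that understate its fold.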
